A study of Mus musculus with 6 samples.

Results

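Sox7, Sox17 and Sox18 form the SoxF subgroup of the Sox transcription factors. They were read here from every probe set that the platform annotation assigns to one of these genes alone. All 3 genes were found among 18193 measured genes, through 5 of 45037 probe sets: 2 for Sox7, 2 for Sox17 and 1 for Sox18. No probe set joined a SoxF gene with another gene.

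The mutant mice carried the labels' genotype Fz4-/-, called Fz4-null below, and lack Frizzled4, the product of Fzd4. The other group was wild type. Both groups came from a mixed C57Bl6/129 background, both sexes were mixed, and all cerebella were taken at postnatal day 16. The labels name no Cre line or tissue restriction for the null allele. Endothelial cells were captured with beads against the surface protein PECAM, and each of 3 preparations per genotype went onto 1 Affymetrix 3' array. The labels do not tell single animals from pools, and the p-values below therefore cover the spread between preparations, which may be technical. The comparison asked what a lasting loss of Frizzled4 signalling does to the endothelial transcriptome.

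SoxF proteins bind DNA through an HMG box and switch on genes of the vessel wall. Sox17 is known for its role in arteries, Sox18 for starting lymphatic development, and Sox7 for early vascular growth, and the 3 overlap in function because loss of one is often masked by the others. Frizzled4 is the receptor through which Norrin and some Wnts stabilise beta-catenin in endothelium of the retina and brain, and SoxF factors have been proposed as effectors of that signal in retinal vessels.

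Values are log2 expression from RMA, and every difference is Fz4-null minus wild type on that scale, so 1 unit is a 2-fold change. Fzd4 itself was far lower in the null arrays. Its brightest probe set read 3.04, 4.03 and 3.996 in Fz4-null replicates 1 to 3, against 10.80, 10.20 and 10.88 in wild-type replicates 1 to 3. The difference was -6.94 (SE 0.34, limma adjusted p = 0.00965), with adjusted p = 0.127 when the replicate number was a block. The captured cells carried endothelial RNA: 14 measured pan-endothelial genes, among them Pecam1 and Cdh5, had a mean level of 11.58 to 11.68 in Fz4-null arrays and 11.29 to 11.46 in wild-type arrays, where array medians were 5.52 to 5.58. Fz4-null replicate 1 stood apart by its low non-endothelial signal, with microglial and macrophage genes at -2.99 and fibroblast genes at -2.85 relative to wild type on that array. Wild-type replicate 3 carried the most choroid plexus signal, at 8.25 against 5.92 and 5.82 in wild-type replicates 1 and 2. The mean of the choroid plexus genes was lower in all Fz4-null arrays, at 4.70 to 5.35, although Kl, Clic6 and Aqp1 overlapped between the groups.

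No SoxF gene had a lower mean after loss of Frizzled4. All 5 probe sets had a higher mean in the Fz4-null arrays, by 0.039 to 0.56, and 0 of 5 passed an adjusted p of 0.05 in limma, where 0.0111% of all probe sets passed. Over all probe sets, 48.6% had a difference above 0. An unadjusted limma p under 0.05 was reached by 1 of the 5, a dim Sox7 probe set, against 4.46% of all probe sets. In these bulk preparations a change in the number of cells and a change in RNA per cell cannot be told apart.

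Sox7 is a SoxF factor of early endothelial differentiation. Its bright probe set, 1416564_at, read 11.44, 11.31 and 11.22 in Fz4-null replicates 1 to 3, against 11.45, 11.49 and 10.92 in wild-type replicates 1 to 3. The null arrays lay inside the wild-type range, whose width came from wild-type replicate 3, the lowest of the 6 arrays. The means were 11.33 ± 0.11 in Fz4-null and 11.29 ± 0.32 in wild type (SD, n = 3 each). The difference of 0.039 (SE 0.21, limma adjusted p = 1.00) had a 95% interval of -0.47 to 0.55, which as a ratio is 0.722 to 1.46. Without wild-type replicate 3 the difference was -0.14, and without Fz4-null replicate 1 it was -0.018, so its sign rests on single arrays.

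The other Sox7 probe set, 1432495_at, was dim, with all 6 arrays below the array medians. It read 5.42, 5.30 and 5.38 in Fz4-null replicates 1 to 3, against 4.40, 5.01 and 4.995 in wild-type replicates 1 to 3. Here the groups did not overlap, the null arrays being closely spaced and above all wild-type arrays. This was the only 1 of the 5 SoxF probe sets without overlap, and 4.08% of all probe sets had the null arrays all above the wild-type arrays. The difference was 0.56 (SE 0.22, 95% interval 0.043 to 1.08, unadjusted p = 0.0378, limma adjusted p = 1.00). Without wild-type replicate 1, the lowest array, it was 0.36, and with arrays scaled to the pan-endothelial genes it was 0.31, and in neither fit did the unadjusted limma p fall under 0.05. Nor did it without any 1 of the Fz4-null arrays, without both arrays numbered 3, or with variance trend and robust estimation. The other fits that read this probe set alone kept it under 0.05. A reading this near the array medians may hold background as well as transcript, and how much was not tested.

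Sox17, the arterial SoxF factor, has probe sets that ordered the arrays differently. The brighter, 1429177_x_at, whose suffix marks probes that can also read unrelated transcripts, read 11.48, 11.10 and 11.69 in Fz4-null replicates 1 to 3, against 11.14, 11.08 and 11.65 in wild-type replicates 1 to 3. Replicate 3 was the highest array of both genotypes, and the groups overlapped almost fully. The means were 11.42 ± 0.30 in Fz4-null and 11.29 ± 0.31 in wild type (SD, n = 3 each), a difference of 0.13 (SE 0.25, 95% interval -0.45 to 0.72, limma adjusted p = 1.00). As a ratio the interval is 0.731 to 1.64. Leaving out Fz4-null replicate 3 brought the difference to 0.0010, and leaving out wild-type replicate 3 to 0.31.

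The second Sox17 probe set, 1421657_a_at, whose suffix marks probes shared by transcripts of the same gene, read 10.27, 9.92 and 9.70 in Fz4-null replicates 1 to 3, against 9.78, 9.64 and 9.64 in wild-type replicates 1 to 3. Fz4-null replicate 3 fell inside the wild-type range and the other null arrays lay above it. The means were 9.96 ± 0.29 in Fz4-null and 9.69 ± 0.078 in wild type (SD, n = 3 each), and the difference was 0.28 (SE 0.20, 95% interval -0.21 to 0.76, limma adjusted p = 1.00). Without Fz4-null replicate 1, the highest array, it was 0.12. In Fz4-null arrays replicate 3 lay 0.40 below the mean of replicates 1 and 2 by this probe set and 0.40 above it by the brighter one. The probe sets thus disagree on how Sox17 varied among preparations of one genotype, while neither shows a lower mean in the null.

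Sox18, the SoxF factor tied to lymphatic development, had the largest difference of the bright probe sets. It read 11.18, 10.54 and 11.34 in Fz4-null replicates 1 to 3, against 10.33, 10.36 and 11.01 in wild-type replicates 1 to 3 (probe set 1449135_at). Fz4-null replicates 1 and 3 were above every wild-type array, and Fz4-null replicate 2 was below wild-type replicate 3. The means were 11.02 ± 0.43 in Fz4-null and 10.57 ± 0.38 in wild type (SD, n = 3 each). The difference was 0.46 (SE 0.30, limma adjusted p = 1.00), about 1.37-fold, with a 95% interval of -0.25 to 1.16 that as a ratio is 0.841 to 2.23. It was 0.70 without Fz4-null replicate 2, 0.68 without wild-type replicate 3 and 0.29 without Fz4-null replicate 3, and it did not pass in any of these fits. Sox18 had 1 probe set, so no second reading of the gene was available.

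**Figure D1:**
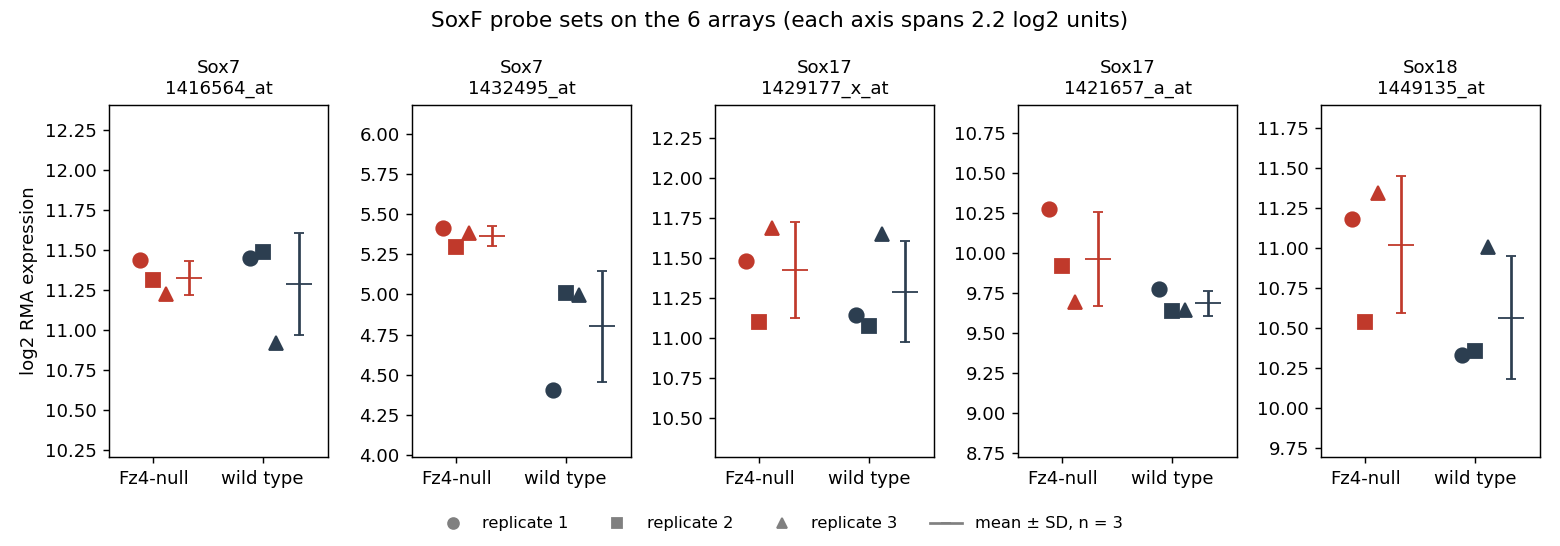
Log2 RMA expression of the 5 SoxF probe sets on each array, Fz4-null left and wild type right, with marker shape giving the replicate number and bars the mean ± SD (n = 3). The vertical axes differ in level but share 1 scale. The groups overlap in 4 panels, and only the dim Sox7 probe set 1432495_at has all Fz4-null arrays above all wild-type arrays.

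The intervals bound how far the SoxF genes could have fallen. For the bright probe sets the lower 95% limits were -0.47 for Sox7, -0.45 for Sox17 and -0.25 for Sox18, so a 2-fold fall (-1) lay outside each interval. The upper limits were 0.55, 0.72 and 1.16, and only that of Sox18 took in a 2-fold rise. Over 19 other settings for Sox7 and Sox18 and 18 for Sox17, the lowest limits reached were -0.79, -0.52 and -0.68 for Sox7, Sox18 and Sox17. These limits are for single probe sets and are not adjusted for the number of genes. The bright probe sets averaged 11.31 for Sox7, 11.36 for Sox17 and 10.79 for Sox18 over all arrays. These levels lie far above the array medians, so the compression that RMA brings near background bears little on these limits.

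**Figure D2:**
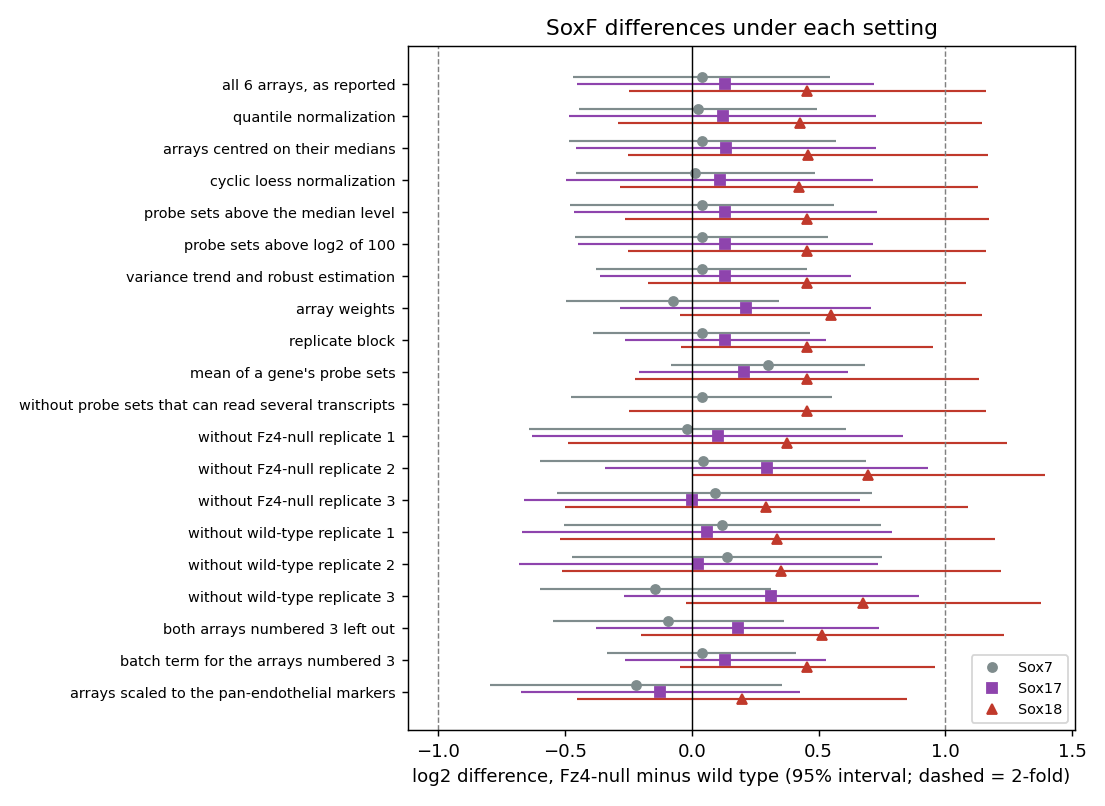
Log2 difference (Fz4-null minus wild type, horizontal axis) with 95% interval for the brightest probe set of Sox7, Sox17 and Sox18 under each setting (rows). No interval reaches the dashed line at -1, the Sox18 point stays above 0 in every row, the Sox7 point lies below 0 in 5 rows, and the Sox17 point lies below 0 only where arrays are scaled to the pan-endothelial markers.

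By replicate number the differences were uneven. Sox18 differed by 0.85, 0.18 and 0.34 in pairs 1 to 3, bright Sox17 by 0.34, 0.022 and 0.037, and bright Sox7 by -0.013, -0.17 and 0.30. The second Sox17 probe set differed by 0.50, 0.28 and 0.051, and the dim Sox7 one by 1.02, 0.29 and 0.38. Pair 1 holds the largest difference in all but the bright Sox7 probe set, and it is the pair of Fz4-null replicate 1, the array low in non-endothelial genes. Whether that low signal has a part in these differences was not tested. In all 3 pairs 4 of 5 SoxF probe sets were higher in the null, against 15.5% of all probe sets. By brightest probe set this held for 2 of 3 SoxF genes and 7 of 14 pan-endothelial genes. With the number as a block, the Sox18 interval was -0.042 to 0.95 (limma adjusted p = 0.589), and none of the 5 passed.

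The pan-endothelial marker genes leaned the same way as the SoxF genes. Endothelial transcription factors, of which Erg is also in that marker list, did so less. The 24 measured had 13 higher, 11 lower and a median difference of 0.022. Relative to wild type, the mean of the 14 pan-endothelial genes was 0.32, 0.23 and 0.22 on Fz4-null replicates 1 to 3, against -0.066, -0.037 and 0.10 on wild-type replicates 1 to 3. Among these genes 11 were higher and 3 lower in the null, from -0.13 for the VEGF receptor Flt1 to 1.00 for Clec14a, and the bright SoxF differences lie within that range. When each array was scaled to these 14 genes, a choice made after seeing the data that shifts the median of all probe sets to -0.27, the differences were -0.22 for Sox7, -0.12 for Sox17 and 0.20 for Sox18. The part of endothelial purity in the SoxF values was otherwise not tested. Sox17 is also used by oligodendrocyte precursors. The 8 measured oligodendrocyte-lineage genes averaged 4.60, 4.96 and 5.11 in Fz4-null replicates 1 to 3, against 4.91, 4.95 and 5.12 in wild-type replicates 1 to 3, and the part of such cells in the Sox17 values was not tested. Over all 6 arrays Cnp read 9.36 to 10.47 and Mbp 7.40 to 8.46, above the array medians. Both come from probe sets whose suffix marks probes that can also read unrelated transcripts. The precursor factors Olig1 and Olig2 read 3.17 to 3.97 and 2.14 to 2.34, below the medians. Mog (2.62 to 3.87), Mag (2.44 to 3.04) and Sox10 (4.48 to 5.36) were below them too. Mobp read 4.40 to 5.79 and was above its array median only on wild-type replicate 3.

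**Figure D3:**
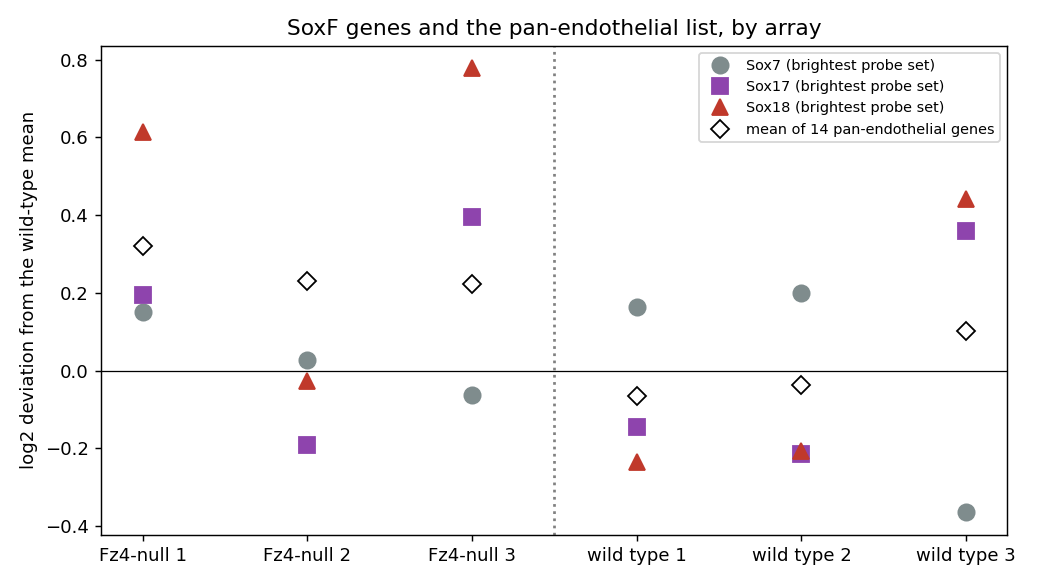
Deviation of each array from the wild-type mean (log2, vertical axis) for the brightest Sox7, Sox17 and Sox18 probe sets and for the mean of 14 pan-endothelial genes, with Fz4-null arrays left of the dotted line and wild-type arrays right. Sox17 and Sox18 are highest on replicate 3 of both genotypes, where Sox7 is lowest, while the pan-endothelial mean is 0.22 to 0.32 on the null arrays.

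In both genotypes replicate 3 was the highest array for Sox18 and bright Sox17 and the lowest for bright Sox7. It stood apart from replicates 1 and 2 only in wild type. Among Fz4-null arrays replicate 2 lay furthest from the others for Sox18 (11.18, 10.54 and 11.34) and bright Sox17 (11.48, 11.10 and 11.69). Replicate 3 also had a shared pattern beyond the SoxF genes. Over all probe sets, deviations from group means on the 2 arrays numbered 3 correlated at 0.574. Relative to the mean of replicates 1 and 2, replicate 3 was higher for Sox18 by 0.48 in Fz4-null and 0.66 in wild type, and for bright Sox17 by 0.40 in Fz4-null and 0.54 in wild type. For bright Sox7 the same gap was -0.15 in Fz4-null and -0.55 in wild type. The second probe sets did not follow, with gaps of -0.40 in Fz4-null and -0.063 in wild type for Sox17, and of 0.023 in Fz4-null and 0.29 in wild type for Sox7. The gaps of the bright probe sets are as large as or larger than their differences between genotypes, and the labels give no batch for replicate 3. With both arrays numbered 3 left out, chosen after seeing the data, the differences were -0.093 for Sox7, 0.18 for Sox17 and 0.51 for Sox18, none of which passed.

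Whether the 3 genes differed in their response was asked within arrays. The log ratio of Sox18 to Sox17 was 0.32 higher in the null, that of Sox18 to Sox7 0.42 higher and that of Sox17 to Sox7 0.094 higher. Two-sided exact permutation tests gave p = 0.1, 0.3 and 0.8 (3 against 3 arrays, Benjamini-Hochberg p = 0.3, 0.45 and 0.8 over 3 pairs). The smallest p this design allows is 0.1, so it cannot pass a threshold of 0.05.

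Genes reported as bound or regulated by SoxF factors in endothelium were split, with 7 of 12 higher and 5 lower in the null. All 12 were measured, 0 passed in limma in either direction, 0 had an unadjusted p under 0.05, and the median difference was 0.047 beside -0.0079 over all probe sets. The members with the lowest p were the Notch ligand Dll4 at 0.41 (SE 0.20), the leukocyte adhesion receptor Vcam1 at 0.30 (SE 0.20) and the junction cadherin Cdh5 at 0.44 (SE 0.30), each with limma adjusted p = 1.00. Dll4 read 9.62, 9.62 and 9.33 in Fz4-null replicates 1 to 3, against 8.95, 9.37 and 9.02 in wild-type replicates 1 to 3. The null arrays of Dll4 were high with 1 overlap, since Fz4-null replicate 3 fell below wild-type replicate 2. In 1 of the 12 genes, the VEGF and semaphorin co-receptor Nrp1, all null arrays were above all wild-type arrays, by only 0.13 in the mean, against 4.08% of all probe sets. At the other end of the list, Prox1, the lymphatic factor that Sox18 switches on, read -0.17 (SE 0.49), and the gap junction gene Gja4 read -0.15 (SE 0.49). Cdh5 and Robo4 of this list, like Cldn5, Kdr and Tek, are also pan-endothelial markers.

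Prox1 varied mostly through 1 array. It read 7.08, 9.09 and 8.56 in Fz4-null replicates 1 to 3, against 8.54, 8.43 and 8.28 in wild-type replicates 1 to 3. Fz4-null replicate 1 was lowest of all, and the other null arrays were above every wild-type array. Fibroblast genes had the same order over Fz4-null replicates 1 to 3, with means of 7.06, 10.29 and 9.15. Microglial and macrophage genes did too, at 5.67, 8.87 and 8.43, whereas pan-endothelial genes averaged 11.68, 11.59 and 11.58. The part of non-endothelial cells in the Prox1 values was not tested. The 3 Prox1 probe sets read -0.17, -0.41 and 1.07, with no common direction. Cldn5, the tight junction protein also placed under Sox18, read 12.53, 12.44 and 12.84 in Fz4-null replicates 1 to 3, against 12.45, 12.51 and 12.89 in wild-type replicates 1 to 3, with replicate 3 highest in both genotypes as for Sox18.

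Genes for proteins that SoxF factors work with had differences near 0 in their brightest probe sets. By these, all 6 listed partners lay between -0.054 and 0.10, with 0 past the threshold in limma. An unadjusted p under 0.05 was reached by 0, and the median was 0.053. Their other probe sets ranged more widely, from -0.15 for Rbpj to 0.50 for Mef2c. The 95% interval of Rbpj was wide, at -1.13 to 1.02. The MADS-box factor Mef2c, a partner of Sox18, read 0.10 (SE 0.21), beta-catenin (Ctnnb1), which binds Sox17, read 0.055 (SE 0.16), and the Ets factor Erg read 0.075 (SE 0.24), each with limma adjusted p = 1.00.

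**Figure D4:**
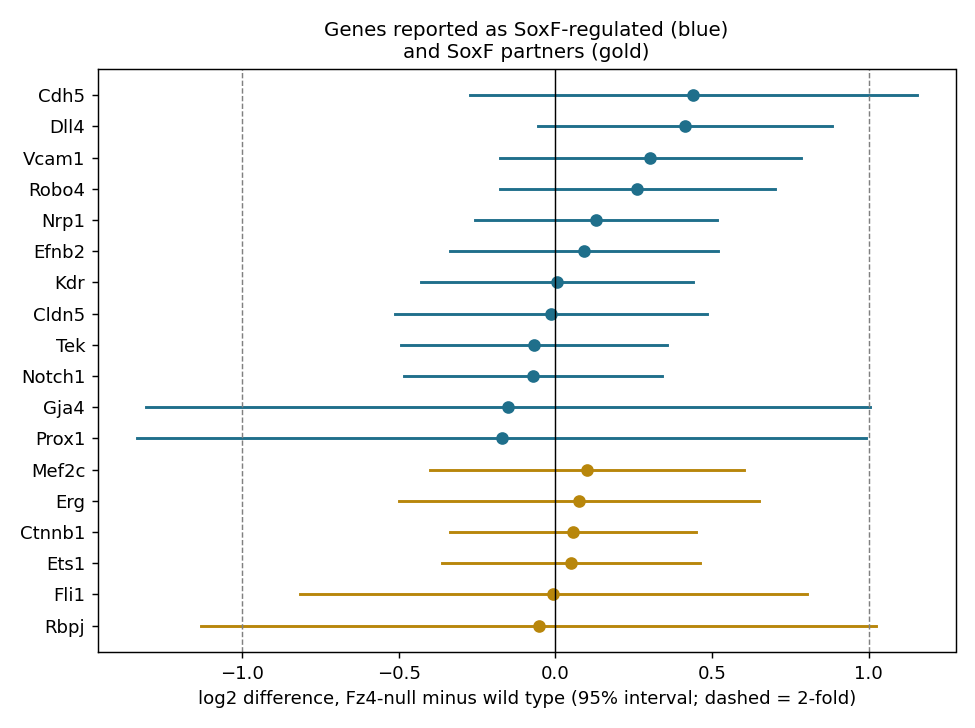
Log2 difference (Fz4-null minus wild type) with limma 95% interval for 12 genes reported as SoxF-regulated (blue) and 6 SoxF partners (gold), sorted within each list. Every interval but those of Prox1, Gja4 and Rbpj stays right of -1, and all cross 0.

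The rest of the Sox family gives a setting for these values. Of 16 other Sox genes, 9 had a mean above the median level of all probe sets, 0 passed in limma, and the median difference was -0.040. An unadjusted p under 0.05 was reached by 3, all lower in the null, where 2.37% of all probe sets were lower at that p. In 3 genes (Sox6, Sox10 and Sox3) the null arrays lay entirely below the wild-type arrays, against 5.18% of all probe sets.

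Sox9, a SoxE factor of astrocytes and Bergmann glia, read 9.49, 10.14 and 9.52 in Fz4-null replicates 1 to 3, against 10.09, 10.72 and 10.27 in wild-type replicates 1 to 3. The difference was -0.65 (SE 0.27, limma adjusted p = 1.00), and 1 null array reached above the lowest wild-type array. Sox6, a SoxD factor of neural and cartilage progenitors, read -0.71 (SE 0.27), and Sox10, a SoxE factor of oligodendrocytes, read -0.50 (SE 0.20) from a level below the array medians. Astrocyte and Bergmann glia genes, a list of 9 that includes Sox9, lay at -1.93, 0.32 and 0.12 on Fz4-null replicates 1 to 3 relative to the wild-type mean, and their part in these values was not tested.

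Other Sox genes above the median level leaned both ways. Sox13, a SoxD factor, read 0.50 (SE 0.23) and Sox11, a SoxC factor of immature neurons, read 0.62 (SE 0.39), positive in 6 of 6 probe sets. Sox4, the other bright SoxC gene, read -0.00094 (SE 0.28). Sox8 read 0.76 (SE 0.87), Sox21 0.28 (SE 0.57), Sox2 0.087 (SE 0.49) and Sox5 -0.40 (SE 0.35), with intervals that each took in a 2-fold change in at least one direction. The SoxF bright probe sets had SEs of 0.21 to 0.30, so their changes were bounded more tightly than those of the last 4 genes.

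**Figure D5:**
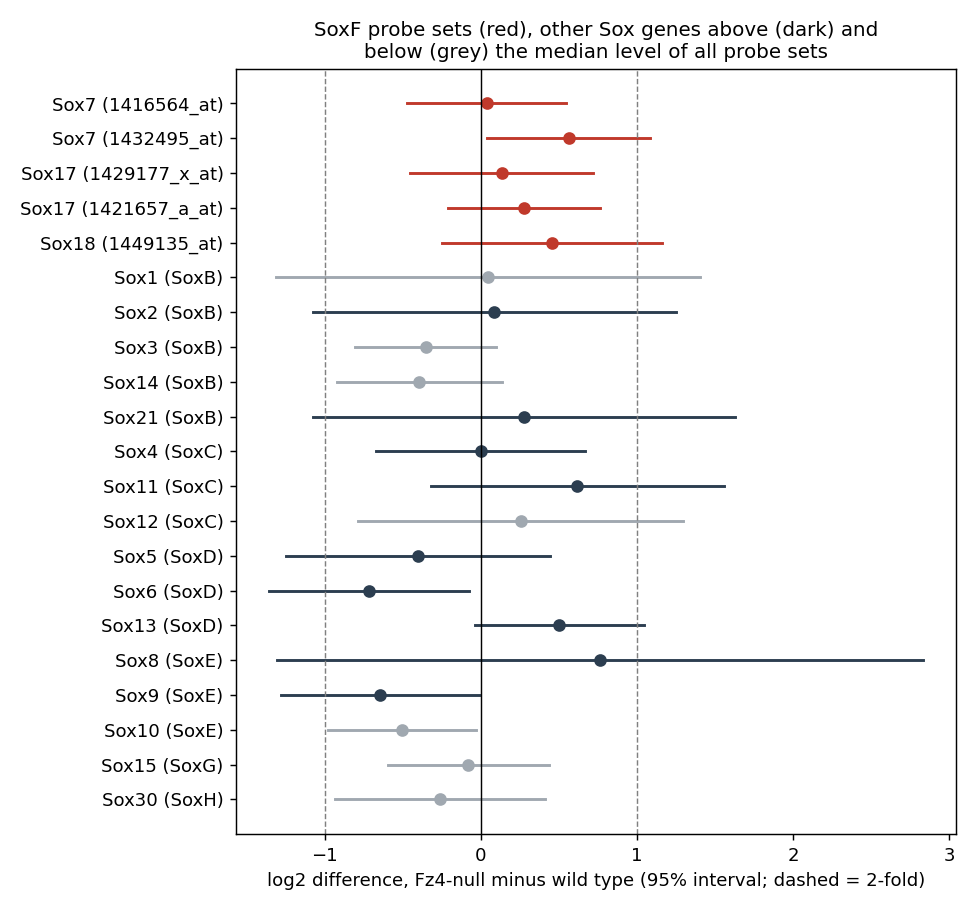
Log2 difference (Fz4-null minus wild type) with limma 95% interval for the 5 SoxF probe sets (red) and for 16 other Sox genes, each read from its brightest probe set, with mean above (dark) or below (grey) the median level of all probe sets. The SoxF points lie between 0.039 and 0.56, and the intervals of Sox6, Sox9 and Sox10 lie below 0 before adjustment.

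Wnt feedback and target genes, read on the same arrays, had no member past the threshold. Of 11 measured, 0 passed in limma and 4 had an unadjusted p under 0.05, all lower, where 2.37% of all probe sets were lower at that p. The median difference was -0.44, with 10 lower and 1 higher. Differences ran from -1.78 for Notum to -0.12 for Ccnd1 and 0.0059 for Lef1, the only member higher. On these arrays the mean of choroid plexus genes differed by -1.65 and that of fibroblast and meningeal genes by -1.07, and their part in the Wnt values was not tested. The null arrays were all below the wild-type arrays in 5 of the 11, against 5.18% of all probe sets. The Wnt inhibitors Notum and Nkd1 read -1.78 (SE 0.44, limma adjusted p = 0.811) and -1.27 (SE 0.31, limma adjusted p = 0.818), and the secreted Fgf-binding protein Fgfbp1 read -1.32 (SE 0.36, limma adjusted p = 0.897). No SoxF probe set had a mean below wild type on these arrays, though the difference between SoxF and feedback genes was not itself tested.

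The genes whose pattern over the 6 arrays was most like each SoxF gene were found as the smallest root mean square difference between mean-centred log2 values. For Sox7 they were the cytoskeletal crosslinker Macf1 (0.041), the kinase Mast4 (0.041) and the kinase Taok1 (0.045), out of 8269 genes. Those for Sox17 were Prelid1, a mitochondrial lipid carrier (0.033), Fam114a2 (0.033) and the acetyltransferase Naa60 (0.039), out of 6601. For Sox18 they were the proprotein convertase Pcsk7 (0.053), the zinc finger gene Zfp518b (0.059) and the sorting nexin Snx15 (0.070), out of 3565. Pcsk7 lay at 0.41, -0.24 and 0.46 on Fz4-null replicates 1 to 3 and at -0.50, -0.44 and 0.30 on wild-type replicates 1 to 3, so it too was high on replicate 3 of both genotypes. None of the 9 was an endothelial marker of the list, and with this many candidates and 6 arrays such likeness is a description only.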

How the data were processed

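Per the submitters' processing notes, the authors' log2 values are from RMA, with no implementation or version stated. RMA corrects background, normalizes arrays together and summarises probe sets, and it compresses differences near background. Of 45101 probe sets, 64 Affymetrix controls were left out. The platform annotation gave 34945 of the rest 1 symbol, 932 several and 9160 none. Each gene was read from its brightest single-symbol probe set by mean over all arrays. Arrays have no library depth, so their number limits the precision.

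Limma 3.58.1 (R 4.3.3) fitted all 6 arrays with lmFit and eBayes, no covariate and two-sided tests, adjusted by Benjamini-Hochberg over 45037 probe sets. Intervals are moderated 95% intervals. On 10 simulated data sets of 45037 probe sets with 200 changed, these covered the true value in 94.7% of cases, and 3.58% of changes of log2 1, 75.7% of log2 2 and 98.9% of log2 4 were called. Within any 2 arrays at most 0.351% of values were identical.

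The labels number the replicates. Deviations from group means correlated at 0.244, 0.303 and 0.574 for like numbers, all above the 0.1 set for pairing, although 2 unlike pairs did too (0.262 and 0.124). The replicate block is an alternative to the fit reported.

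The members, lists and tests were chosen with earlier results of these data known. Named genes were every SoxF probe set, Fzd4, up to 3 members per list with the lowest p, Sox genes above the median level, and the 3 genes most like each member among genes above the median level with an SD at least the member's. Nrp1, Prox1, Gja4, Cldn5, Robo4, Kdr, Tek, Flt1, Clec14a, Sox3, Ccnd1 and Lef1 were named after their values were seen. Alternatives covered normalization, filters, variance model, block, probe set choice and each array left out. Figures were drawn with matplotlib.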

Additional observations from a re-analysis of the deposited data

How the results depend on the processing

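No alternative brought Sox7, Sox17 or Sox18 past the threshold. Sox18 kept its direction under all 19, at 0.20 to 0.70, and Sox17 under 17 of 18. Sox17 read -0.12 when arrays were scaled to pan-endothelial genes, a setting added after seeing the data, and its probe sets both carry suffixes that left it unmeasured when such probe sets were dropped. Sox7 turned lower in the null with array weights (-0.076), without both arrays numbered 3 (-0.093) and with pan-endothelial scaling (-0.22), and with single arrays left out it ranged from -0.14 to 0.14. Averaging its 2 probe sets raised it to 0.30, since the dim one then counts equally. That scaling also moved the median of SoxF-regulated genes to -0.21 and of endothelial factors to -0.24, as it lowers all probe sets alike. Fzd4 read -6.94 with the replicate block and -6.96 without both arrays numbered 3, losing its call in both, and -7.15 to -6.61 with 1 array left out, keeping its call only without Fz4-null replicate 1 or wild-type replicate 3. The count of 5 probe sets past the threshold was 0 with the replicate block (3917 at an unadjusted limma p under 0.05), 0 without both arrays numbered 3 (3580), 2 with a batch term for them, 8 with pan-endothelial scaling, 11 genes with probe sets averaged, 21 with array weights, and 0 to 2 with 1 array left out (1329 to 3510). The replicate block changed no other call. Level filters, loess, quantile and median centring kept the direction of the brightest probe set of each SoxF gene, while the level filters dropped the dim Sox7 one. With 3 arrays a group, changes near 2-fold are rarely called.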

Other observations

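Other transcription factors of endothelium also gave no calls. Of 24 measured factors of 26 listed, 0 passed in limma and 0 had an unadjusted p under 0.05. Differences ran from -0.34 to 0.23 with a median of 0.022. The Ets factors Elk3 (0.23, SE 0.18) and Ets2 (0.14, SE 0.16) had all Fz4-null arrays above all wild-type arrays, 2 of 24 genes against 4.08% of all probe sets. Elk3 read 11.28, 10.91 and 10.97 in Fz4-null replicates 1 to 3, against 10.82, 10.79 and 10.85 in wild-type replicates 1 to 3. The forkhead gene Foxc1 read -0.19 (SE 0.23). Read the same way, from the brightest probe set, Sox7 (0.039) and Sox17 (0.13) lay inside that range and Sox18 (0.46) above it, without passing the test.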
